A study of Drosophila melanogaster with 3 samples.

Results

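The 73 genes described here encode proteins of the mitochondrial ribosome of Drosophila melanogaster. They were chosen by symbol, as the protein-coding genes of an Ensembl annotation of the BDGP6 assembly whose names begin with mRpL (47 genes, large subunit) or mRpS (26 genes, small subunit). They are 73 of 13945 protein-coding genes on the 6 chromosome arms that carry peaks. The measurement was chromatin immunoprecipitation followed by sequencing (ChIP-seq) of Sox15, in 1 group of 3 biological replicates. All replicates were whole prepupae of mixed sex from a transgenic line that stably expresses Sox15 fused at its C-terminus to enhanced green fluorescent protein (eGFP). One label field names Sox15 as the antibody target, while another says that an anti-GFP antibody was used. The series has no second genotype, stage or treatment, so nothing was compared between conditions, and no p-values are given. The counts for the mitochondrial ribosomal protein genes are set beside the same counts over all protein-coding genes, members included.

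The mitochondrial ribosome translates the few proteins encoded in mitochondrial DNA, which are subunits of the respiratory chain and of ATP synthase. Its ribosomal RNAs are made in the organelle, but its proteins are encoded in the nucleus, translated in the cytoplasm and imported. Some have bacterial counterparts, such as mRpS2 and mRpL4, and others, such as mRpL41 and mRpS22, are found in mitochondria and not in bacterial ribosomes. Sox15 is a transcription factor with a DNA-binding domain of the high-mobility-group type. The authors' peak lists give the base of highest enrichment, the summit, and a signal value per peak whose scale is not stated. Signals are read here only within a list. The reproducible set, thresholded by the irreproducible discovery rate (IDR), held 4555 peaks. In whole animals, weak occupancy in many cells and strong occupancy in few cells cannot be told apart.

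Sequences are shown for 6 of the 9 strongest members, to let the bases under the summits be read. For a pair of start sites that point away from each other, the whole stretch between them is given where it is short. These are mRpS10 with Art3 (chr3R:15229409-15229664, plus strand, summit at base 118), mRpL24 with betaggt-I (chr2L:4945362-4945578, minus strand, summit at base 96) and mRpS2 with Mon1 (chr2L:4850420-4850640, minus strand, summit at base 37). Bases are counted from 1 at the 5′ end, and each sequence reads towards the start of the mitochondrial gene. For mRpS23 (chr2L:13835425-13835485, minus strand), mRpL20 (chr3L:13018091-13018151, minus strand) and mRpS6 (chr3L:4364397-4364457, plus strand), 61 bp centred on the summit are given. Coordinates are dm6 and the letters are from the RefSeq Release 6 assembly. Capitals mark matches to the Sox core (AACAAT) or to the TATA box, on either strand.
mRpS10: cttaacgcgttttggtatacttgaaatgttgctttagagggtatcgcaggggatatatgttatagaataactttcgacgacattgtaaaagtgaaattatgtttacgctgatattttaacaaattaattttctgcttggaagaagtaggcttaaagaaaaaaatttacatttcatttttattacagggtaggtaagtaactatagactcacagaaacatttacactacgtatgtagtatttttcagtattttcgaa
mRpL24: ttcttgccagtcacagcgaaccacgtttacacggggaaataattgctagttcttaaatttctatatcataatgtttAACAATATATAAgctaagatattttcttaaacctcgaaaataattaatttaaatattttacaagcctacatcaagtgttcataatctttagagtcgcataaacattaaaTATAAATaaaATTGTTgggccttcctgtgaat
mRpS2: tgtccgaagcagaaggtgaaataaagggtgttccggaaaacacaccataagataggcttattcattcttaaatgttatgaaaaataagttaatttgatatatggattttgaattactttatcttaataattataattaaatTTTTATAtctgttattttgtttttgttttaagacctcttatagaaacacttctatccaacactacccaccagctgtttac
mRpS23: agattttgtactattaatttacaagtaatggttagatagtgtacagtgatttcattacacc
mRpL20: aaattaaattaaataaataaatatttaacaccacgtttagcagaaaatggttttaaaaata
mRpS6: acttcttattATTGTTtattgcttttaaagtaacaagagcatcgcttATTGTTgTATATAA

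Sequences at mRpL41 and mRpL34 are not printed here, nor is that at mRpL23, whose summit lies in a 5′ UTR and whose window of 201 bp held a Sox core, a TATA box and an E-box. The mRpS10 stretch of 256 bp, which holds the strongest peak among the members, had no match to any of the 6 motifs searched, which are named with the motif counts, and a GC content of 30.1%. The Sox core was sought only as the exact word AACAAT. Similar words, such as the AACAAA at the mRpS10 summit, were not counted. The mRpL24 stretch had a Sox core and a TATA box that share a base near its summit, and another of each towards its 3′ end. The mRpS2 stretch had a TATA box and no Sox core. In the printed 61 bp, mRpS6 had 2 Sox cores and a TATA box, and mRpS23 and mRpL20 had no match. The wider window of 201 bp at mRpL20 held a Sox core. The window at mRpL20 was 16.4% GC and that at mRpS2 39.3% GC, the lowest and the highest of the 6 windows of 61 bp.

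In the IDR set, 20 of the 73 members (27.4%, 95% Wilson interval 18.5 to 38.6%) had a summit within 1000 bp of a start site, where 19.3% of all protein-coding genes did. The interval includes the share of all genes. In the relaxed list made from the pooled replicates, which holds 14164 peaks, 43 members (58.9%, interval 47.4 to 69.5%) had such a summit, and 37.4% of all genes did. This interval lay above the share of all genes. Among genes with a divergent start site, described below, the pooled interval included the share of all such genes. The IDR peaks are the 4555 pooled peaks of highest signal, so both counts rest on a single ranking. Intervals cover counting error over genes only, with genes taken as independent, and are no tests. The read depth is unknown.

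Each replicate list was then cut to its 4555 strongest peaks. Replicate 1 gave 22 members (30.1%, against 19.3% of all genes), replicate 2 gave 20 (27.4%, against 19.1%) and replicate 3 gave 20 (27.4%, against 18.6%). The mean was 20.7 ± 1.2 members (SD, n = 3). The share of members exceeded that of all genes by 9.31 ± 1.30 percentage points (SD, n = 3 replicates), in the same direction in every replicate. The 16 members that had a summit among the strongest peaks in all 3 replicates made up 21.9%, against 15.3% of all genes. In the whole relaxed lists the members with a summit numbered 50, 41 and 32 in replicates 1, 2 and 3 (68.5%, 56.2% and 43.8%), against 45.5%, 42.1% and 36.5% of all genes.

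**Figure D1:**
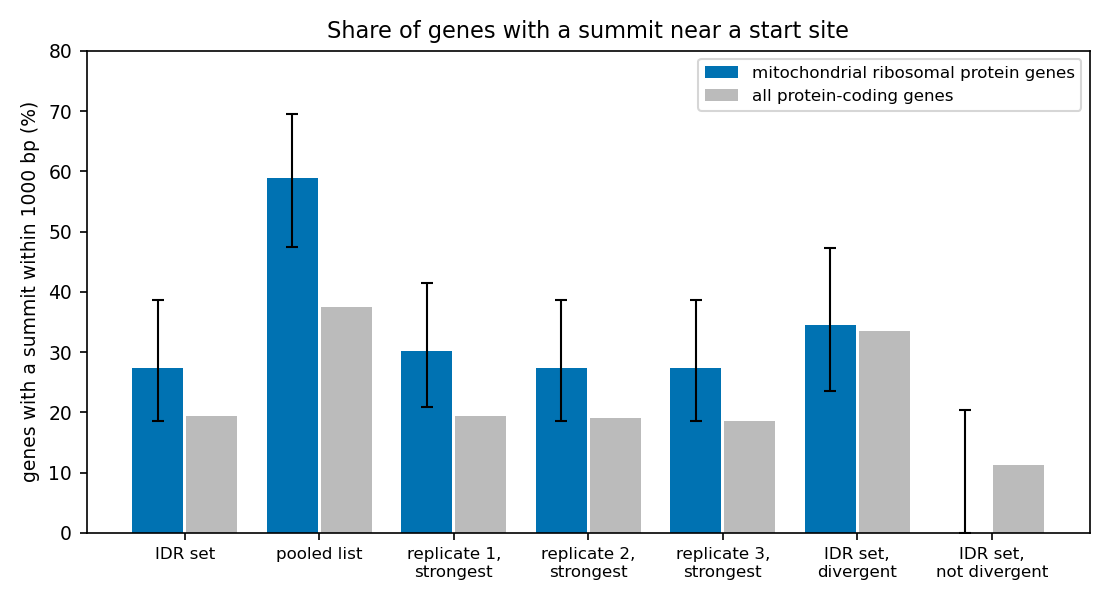
Percentage of genes with a summit within 1000 bp of a start site, for the mitochondrial ribosomal protein genes (left bar of each pair, with 95% Wilson intervals) and all protein-coding genes (right bar), in the IDR set, the pooled list and the 4555 strongest peaks of each replicate, and in the IDR set for genes with and without a divergent start site within 1000 bp. The members stand above all genes in each of the first 5 pairs, and at 34.5% against 33.5% among genes with a divergent start site.

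Many members are arranged head to head with another gene. A divergent start site, meaning one on the opposite strand that lies upstream and faces away, was present within 1000 bp for 58 of 73 members (79.5%) and for 36.2% of all genes. All 20 members with an IDR summit were among these 58. Among genes with a divergent start site, 34.5% of members (20 of 58, interval 23.6 to 47.3%) and 33.5% of all genes had an IDR summit. Among genes without one, 0 of 15 members had an IDR summit, which allows a share of up to 20%, and 11.2% of all genes did. The members were thus close to all genes where a divergent start site was present, and too few to set apart from all genes where it was absent. This split was chosen after the counts had been seen, and the part of the arrangement in the higher overall share was not tested. In the pooled list, 67.2% of members with a divergent start site (39 of 58, interval 54.4 to 77.9%) and 55.5% of all such genes had a summit. The interval includes the share of all such genes. Without a divergent start site the values were 26.7% of members (4 of 15) and 27.2% of all genes. No divergent pair consisted of 2 members.

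The gap between the divergent start sites had a median of 340.5 bp for the 20 members with an IDR summit and 271.5 bp for the 38 without. Over all genes both medians were 298 bp. Of the 18 members whose gap was under 100 bp, 3 had an IDR summit (16.7%, interval 5.84 to 39.2%), against 26.9% of all genes with such a gap. Of the 40 with a gap of 100 bp or more, 17 did (42.5%, interval 28.5 to 57.8%), against 34.8% of all genes. Both intervals include the value of all genes. The members were short genes, with a median length of 909 bp against 2166 bp over all protein-coding genes, and 67 of them (91.8%) had a single annotated start site, against 73.5% of all genes.

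For 12 of the 20 members the start site nearest to the strongest summit belonged to a neighbouring gene (60%), against 30.9% of the 2694 genes with an IDR summit and 46.3% of the 1694 that also had a divergent start site. No interval is given for the 60%. Some calls were narrow. The mRpS26 summit lay 216 bp from its own start site and 214 bp from that of CG13698, and its replicate summits were shifted by 11 to 20 bp. At mRpS22 a second, weaker IDR summit lay 19 bp from its own start site and 373 bp from that of CG5003. For 17 of the 20 members the summit lay between the start sites of the pair. Each of the 20 had another protein-coding start site within 1000 bp of its summit. A peak list alone thus does not assign these peaks to either gene of a pair. Neither the count of 17 nor this count of 20 is given over all genes with a divergent start site. All 20 members had a divergent start site, and whether these counts set them apart from other such genes was not tested.

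**Figure D2:**
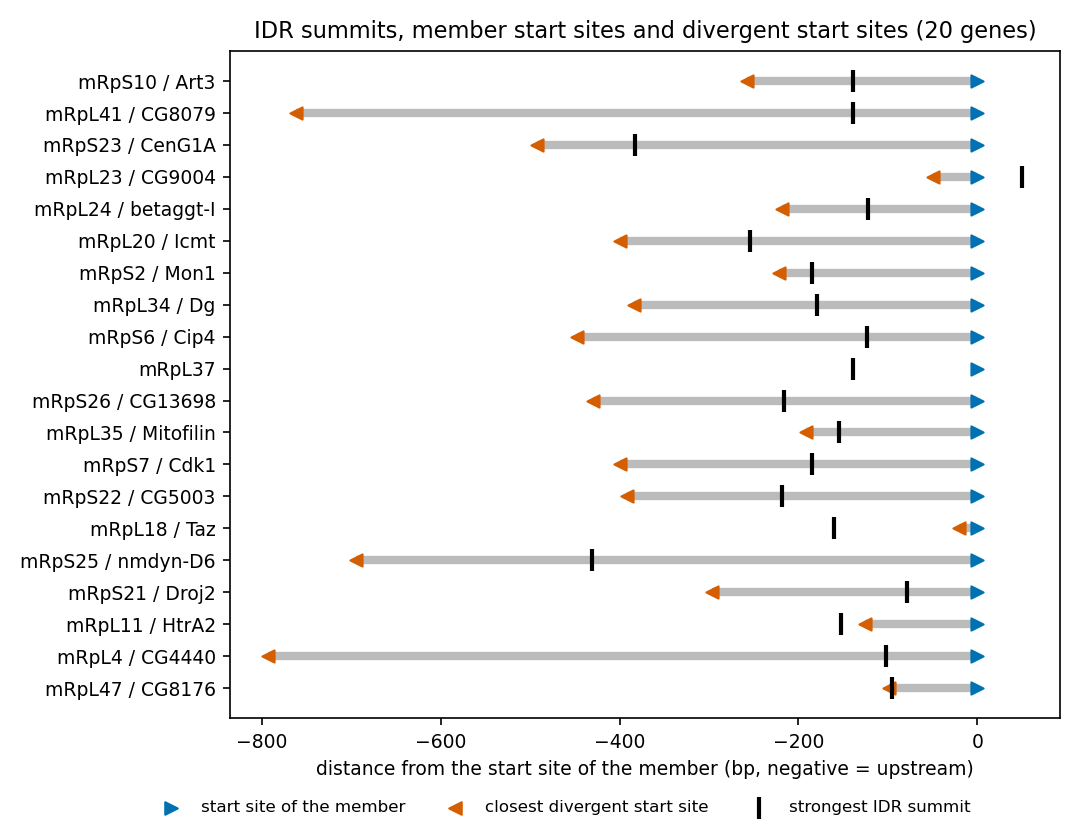
Position of the strongest IDR summit (black tick) at each of the 20 members with one, in bp from the start site of the member (blue, at 0), with the closest divergent start site (orange) on the same axis and members ordered by signal. No divergent start site is drawn for mRpL37, and for the others the ticks lie between both start sites except at mRpL23, mRpL18 and mRpL11.

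The 20 members differed widely in signal, and 4 ranked among the 50 strongest of 4555 peaks. How many of the 2694 genes with an IDR summit had a peak of such rank is not given. Whether the count of 4 sets the members apart was not tested. mRpS10 (FBgn0038307, 3R), a small-subunit protein with a bacterial counterpart, had the highest signal, 2332 at rank 10. Its summit lay 139 bp upstream of the mRpS10 start site and 118 bp from that of Art3, an arginine methyltransferase gene. Its signals in replicates 1, 2 and 3 were 1123, 665.5 and 549.4, at ranks 12, 9 and 14. The rank was thus nearly the same in all 3 lists, while the signals are on the scale of each list.

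mRpL41 (FBgn0034001, 2R), a large-subunit protein specific to mitochondria, followed with a signal of 2096 at rank 16. The summit lay 139 bp upstream, and the nearest other start site, that of CG8079, was 623 bp away, the greatest such distance among the 10 strongest members. The replicate ranks were 11, 28 and 23. mRpS23 (FBgn0260407, 2L), of the small subunit, had a signal of 1908 at rank 25, with replicate ranks of 26, 19 and 29. Its summit lay 383 bp upstream of mRpS23 but 109 bp from the start site of CenG1A, which encodes a GTPase-activating protein for Arf proteins. mRpL23 (FBgn0035335, 3L), whose bacterial counterpart sits at the exit of the peptide tunnel, had a signal of 1567 at rank 42, with replicate ranks of 35, 42 and 45. Its summit was the only one downstream of the member's start site, by 50 bp, in the 5′ UTR of mRpL23.

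mRpL24 (FBgn0031651, 2L), of the large subunit, came next with a signal of 784.1 at rank 195 and replicate ranks of 156, 265 and 255. Its summit lay 122 bp from its own start site and 96 bp from that of betaggt-I, which encodes a subunit of a protein geranylgeranyl transferase. mRpL20 (FBgn0036335, 3L), whose bacterial counterpart acts early in assembly of the large subunit, had a signal of 555.0 at rank 422. The summit lay 254 bp from mRpL20 and 145 bp from Icmt, which encodes a methyltransferase for prenylated proteins, and the replicate ranks were 456, 338 and 569. mRpS2 (FBgn0031639, 2L), of the small subunit, had a signal of 522.1 at rank 483, with replicate ranks of 423, 749 and 401. Its summit was 185 bp from mRpS2 and 37 bp from Mon1, a gene of endosome maturation. A gap in signal thus separated the 4 strongest members, of which mRpL23 was the lowest at 1567, from these 3, of which mRpL24 was the highest at 784.1.

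mRpL34 (FBgn0083983, 2R), of the large subunit, had a signal of 382.3 at rank 868, with its summit 179 bp upstream and 205 bp from Dg, the dystroglycan gene. The replicate ranks were 843, 962 and 865. mRpS6 (FBgn0035534, 3L), of the small subunit, had a signal of 339.8 at rank 1050 and replicate ranks of 865, 1403 and 1162. Its summit was 123 bp upstream, and the nearest other start site was that of Cip4, which encodes a membrane-bending F-BAR protein, at 325 bp. mRpL37 (FBgn0261380, 3R), a mitochondrial protein of the large subunit, had a signal of 269.3 at rank 1514, with replicate ranks of 1911, 1043 and 1659. The summit lay 139 bp upstream of mRpL37. In these 10 members every replicate held the peak among its 4555 strongest.

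The other 10 members had signals of 117.0 to 230.6. mRpS26 had 230.6, mRpL35 206.3, mRpS7 201.5, mRpS22 190.0 and mRpL18 187.4. mRpS25 had 169.8, mRpS21 156.3, mRpL11 156.0, mRpL4 117.9 and mRpL47 117.0. The last 2 lay just above the lowest IDR signal, 116.6, and mRpL47 ranked 4268, 4749 and 11539 in replicates 1, 2 and 3. mRpS22 had a second, overlapping IDR peak (signal 144.4) with its summit 19 bp from the start site, so the 20 members had 21 IDR peaks. In each replicate a single peak overlapped both. The mRpL47 summit lay 95 bp from its own start site and 4 bp from that of CG8176, and a start site of the histone demethylase gene Kdm3 was also within 1000 bp.

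**Figure D3:**
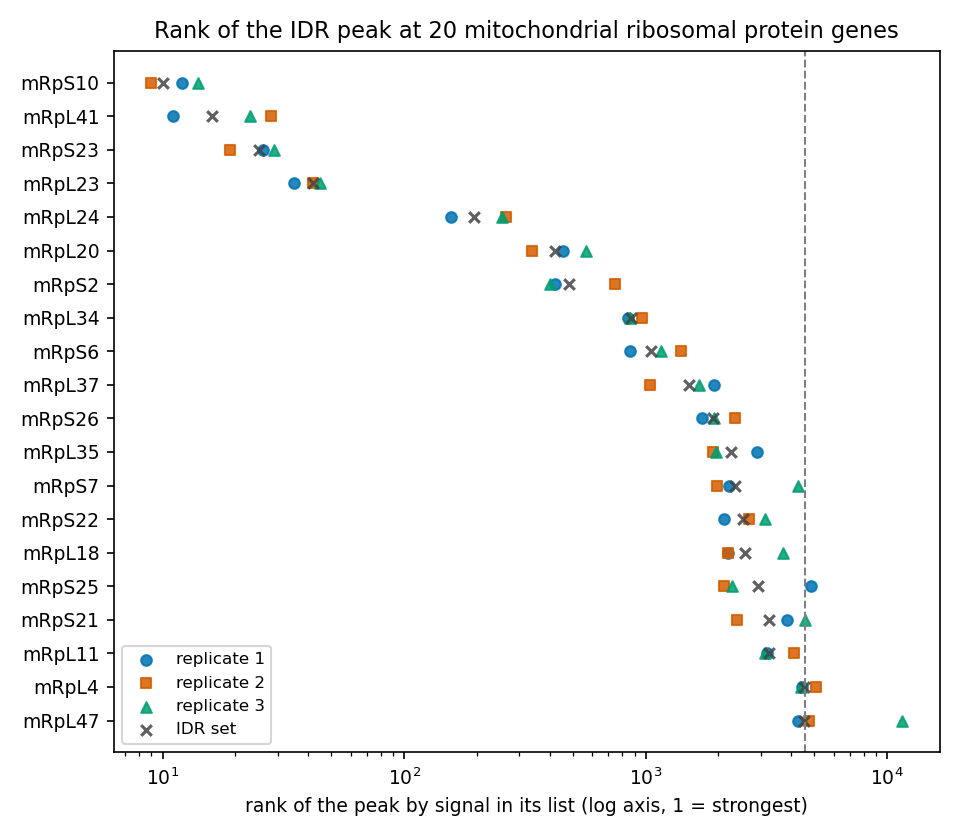
Rank by signal (log axis, 1 is the strongest) of the strongest IDR peak at each of the 20 members, in the IDR set (cross) and of the overlapping peak in the relaxed list of replicates 1 (circle), 2 (square) and 3 (triangle), with a dashed line at rank 4555. The 10 strongest members lie left of the line in every replicate, and mRpL47 ranks 11539 in replicate 3.

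The median signal of the strongest summit was 249.9 over the 20 members (quartiles 183.0 and 612.3) and 236.3 over the 2694 genes with an IDR summit (quartiles 159.8 and 411.6). The medians were thus close. Of the 20 members, 9, 3, 6 and 2 fell in the successive quartiles of the IDR peaks by signal, from the strongest down. These quartiles are of all 4555 peaks (median 205.2), near a start site or not. The split of the 2694 genes is not given, and an even split is not its baseline. The nearest summit lay 19 to 431 bp from the start site, with a median of 145.5 bp against 184 bp over all these genes. It was within 250 bp for 17 of 20 members (85%) and for 64.6% of all these genes. For 19 of 20 members (95%) it was upstream, as for 85.3% of all. All 20 members had a divergent start site, against 62.9% of the 2694 genes. Distance and side are not given for genes with a divergent start site alone, so the part of that arrangement was not tested. The summit was intergenic at 16 members, in a 5′ UTR at 3 and in an exon annotated as non-coding, within a copy of the transposable element INE-1, at mRpS25. These counts by feature are not given over the 2694 genes, so they do not set the members apart.

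Replicate summits were compared with IDR summits only where the peaks overlapped. The IDR peaks come from the pooled list of the same 3 replicates, so the shifts are limited by construction and are not independent replication. No shift over all IDR peaks is given. The overlapping replicate summit of the 20 members was a median of 6 bp from the IDR summit (60 pairs), and 59 of the 60 were within 50 bp. The exception was mRpS21 in replicate 3, at 176 bp. By the stricter rule that a peak among the 4555 strongest of a replicate covers at least 50% of the IDR peak, 15 of the 20 members were matched in all 3 replicates, against 73.4% of all IDR peaks.

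The threshold of 1000 bp did not divide close neighbours. The members furthest inside were mRpS25 at 431 bp and mRpS23 at 383 bp. The nearest outside were mRpL27 at 1049 bp and mRpS18A at 1386 bp.

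A further 23 members had a summit in the pooled list only, with signals of 49.4 to 111.3 (median 76.2) at 16 to 605 bp (median 156 bp) from the start site. The strongest were mRpS24 with 111.3, mRpL9 with 110.5, mRpS18B with 106.3, mRpL43 with 105.0 and mRpL32 with 104.7, all just below the IDR minimum of 116.6. Of these, mRpL9 had no divergent start site within 1000 bp. Of the 23, 6 were among the 4555 strongest peaks of at least 1 replicate and 8 were in the relaxed lists of all 3. The other members of this group, by falling signal, were mRpL21, mRpL2, mRpL17, mRpS31, mRpS29, mRpS18A, mRpL3, mRpL33, mRpS17, mRpL36, mRpS5, mRpL54, mRpL42, mRpL51, mRpL53, mRpS11, mRpL52 and mRpL10. They included mRpS29, a GTP-binding small-subunit protein known in mammals as DAP3, with 80.4, and mRpL10, whose bacterial counterpart anchors the ribosomal stalk, with 49.4. Over all 43 members the median pooled signal was 110.5, against 121.5 over all genes with a pooled summit.

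**Figure D4:**
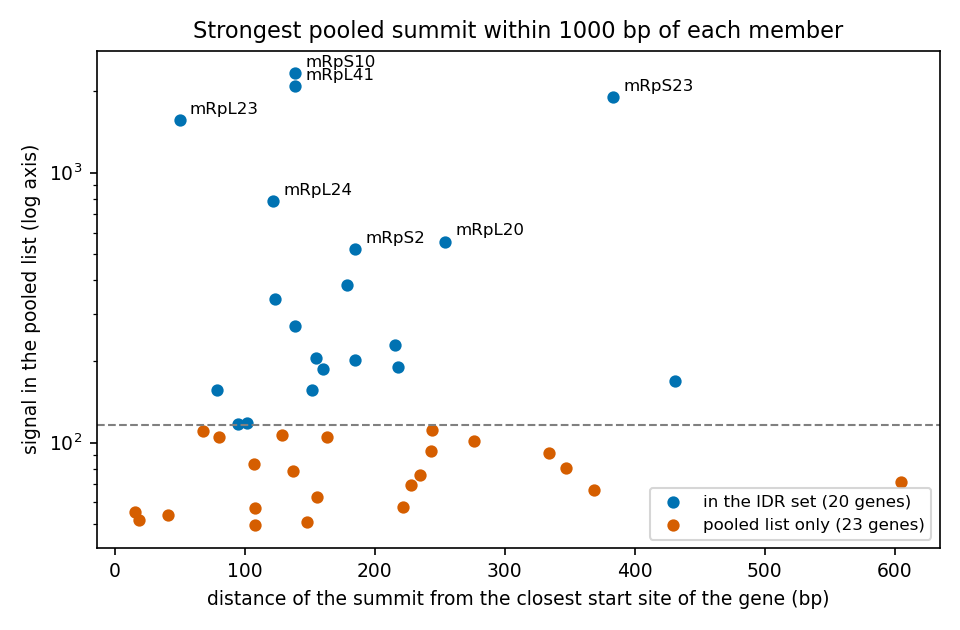
Signal of the strongest pooled summit within 1000 bp (log axis) against its distance from the closest start site of the gene, for the 20 members in the IDR set and the 23 in the pooled list only. The dashed line is the lowest IDR signal, 116.6, and mRpS10, mRpL41, mRpS23 and mRpL23 lie at 1567 or above.

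The remaining 30 members had no pooled summit within 1000 bp, and their nearest pooled summit was a median of 3718 bp away. Of these, 10 had a summit in the relaxed list of at least 1 replicate: mRpL15, mRpL16, mRpL19, mRpL22, mRpL27, mRpL39, mRpL44, mRpL50, mRpS16 and mRpS35. Only mRpL16 and mRpL27 had one in 2 replicates. The other 20 had none in any list. From the large subunit these were mRpL1, mRpL12, mRpL13, mRpL14, mRpL28, mRpL30, mRpL38, mRpL40, mRpL45, mRpL46, mRpL48, mRpL49 and mRpL55. mRpL12, whose bacterial counterpart forms the stalk that recruits translation factors, was thus without a peak, as were the small-subunit genes mRpS9, mRpS14, mRpS18C, mRpS28, mRpS30, mRpS33 and mRpS34. Absence from these lists means below the threshold of the list, not a measured lack of occupancy.

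By subunit, 9 of 26 small-subunit genes (34.6%, interval 19.4 to 53.8%) and 11 of 47 large-subunit genes (23.4%, interval 13.6 to 37.2%) had an IDR summit, and 17 and 26 had a pooled one. The intervals overlap widely. The groups follow the symbols, although some proteins named for the small subunit are placed elsewhere in current structures.

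Other genes of mitochondrial translation and respiration were counted in the same way, beside the 19.3% of all genes. Of 9 mitochondrial translation factor genes 1 had an IDR summit, the elongation factor gene mEFTu1 (signal 125.5). Of 16 mitochondrial aminoacyl-tRNA synthetase genes, which charge tRNAs in the organelle, 2 had one, LeuRS-m (511.3) and ArgRS-m (242.3). Of 13 genes of mitochondrial DNA and RNA maintenance 3 had one. These were PNPase, an RNA-processing polynucleotide phosphorylase gene with 2419, mtSSB, the mitochondrial single-stranded DNA-binding protein gene, with 164.0, and mTerf5, of the transcription termination factor family, with 131.8. Of 87 genes of oxidative phosphorylation 14 had one (16.1%, interval 9.83 to 25.2%), led by the complex I genes ND-MWFE (718.4) and ND-ASHI (706.3) and the cytochrome c gene Cyt-c-p (601.7). Of 92 genes with symbols of cytoplasmic ribosomal proteins 45 had one (48.9%, interval 38.9 to 59.0%), led by RpS19b (706.9), RpS27 (580.2) and RpL32 (529.7). The strongest of the cytoplasmic genes was thus below the 5 strongest mitochondrial ribosomal protein genes, although its list had the higher share. The summits at LeuRS-m, Cyt-c-p and RpS19b lay 839, 967 and 899 bp from the start site, further than any member's. Those at the other genes named from these lists lay at 24 to 319 bp, with RpS27 at 29 bp. Whether a neighbouring gene's start site was nearer is not given for these lists. The mitochondrial ribosomal protein genes tko and bonsai, which carry other symbols and are no members, had no pooled summit within 1000 bp.

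A divergent start site was present for 79.5% of the mitochondrial ribosomal protein genes, 76.9% of the genes of mitochondrial DNA and RNA maintenance (10 of 13), 59.8% of the cytoplasmic ribosomal protein genes, 50.6% of the oxidative phosphorylation genes, 43.8% of the synthetase genes, 22.2% of the translation factor genes (2 of 9) and 36.2% of all genes.

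A set of 6 motifs was sought in 201 bp centred on the 21 member summits, both strands included. The Sox core, AACAAT, was in 7 of 21 (33.3%), against 24.9% of the 2155 IDR summits within 1000 bp of any protein-coding start site. A TATA box, sought as TATA followed by A or T, then A, then A or T, was in 9 (42.9%), against 41.6%. The E-box CACGTG was in 1, at mRpL23. The DNA replication-related element (DRE), TATCGATA, Motif 1, which is a core promoter element sought by its published consensus, and the nuclear respiratory gene (NRG) element were in 0 of 21. A count of 0 allows a share of up to 14.3%, and all summits near start sites had 3.81%, 1.21% and 5.75%. The NRG element was sought by its core TTACGTAA, TTATATAA, TTACATAA or TTATGTAA, of which TTATATAA also holds a TATA box. It is known from promoters of nuclear genes for mitochondrial proteins in Drosophila. The mean GC content was 32.0% at member summits, 34.1% at all these summits and 41.6% at all start sites.

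The same motifs were counted at the start sites. In 201 bp around the most upstream start site, the DRE was in 15 of 73 members (20.5%), against 7.84% of all genes. Among genes with a divergent start site it was in 20.7% of members and 12.9% of all genes. The NRG element was in 9 members (12.3%), against 2.32% of all genes, and with a divergent start site in 12.1% of members and 2.73% of all genes. Motif 1 was in 6 members (8.22%), against 3.94% of all genes, and with a divergent start site in 8.62% of members and 6.27% of all genes. The other 3 motifs were closer to all genes. The Sox core was in 17 members (23.3%), against 21.6% of all genes. The TATA box was in 24 (32.9%), against 31.1%, and the E-box in 3 (4.11%), against 2.88%. The Sox core was at 6 of 20 members with an IDR summit (30%) and at 11 of 53 without (20.8%). The DRE was at 4 of 20 members with an IDR summit (20%) and at 11 of 53 without (20.8%). The NRG element was at 1 of 20 members with an IDR summit, mRpL20, and at 8 of 53 without. For the TATA box the counts were 9 of 20 (45%) and 15 of 53 (28.3%), the widest difference in share among the motifs. Motif 1 was at 1 of 20 and 5 of 53, and the E-box at 1 of 20 and 2 of 53. These differences were not tested, and a match to a motif does not show that a factor binds there.

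**Figure D5:**
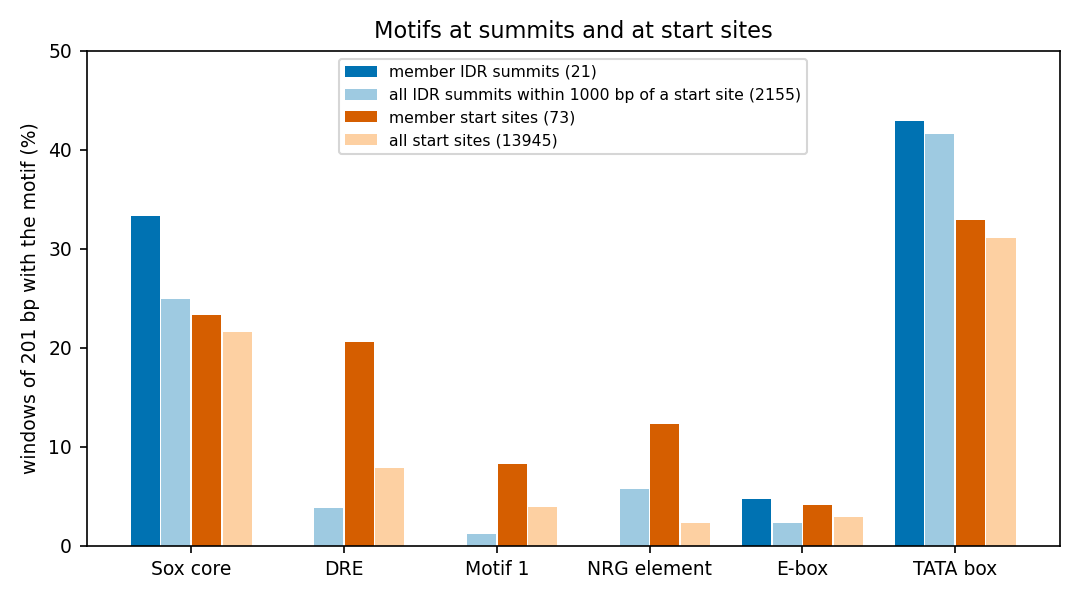
Percentage of 201 bp windows that hold each of 6 motifs, at the 21 member IDR summits, all 2155 IDR summits within 1000 bp of a start site, the start sites of the 73 members and those of all 13945 genes. The DRE is at 0% of member summits and 20.5% of member start sites.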

How the data were processed

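Peak lists were read as the authors deposited them, in dm6 coordinates. The signal per peak is the deposited value, on a scale that is not stated. A −log10 q-value per peak was also deposited and was not used for any count. Per the labels, sonication gave fragments of 200 to 800 bp. A control is named for the replicate and pooled lists in the listing of the files, and it was not analysed here. The sources used here do not give the aligner, the peak caller or the read depth. Precision is also limited by the number of replicates and genes. Whether background at start sites remained after the control was not tested.

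Start sites came from Ensembl release 115. The 41 protein-coding genes off the 6 arms were left out. A summit was assigned to every gene with a start site within 1000 bp. Replicate peaks were matched by 50% overlap. Shares have 95% Wilson intervals. Functions for distances, overlaps and motifs were tested on simulated data. Python 3.11.15, pandas 2.3.3 and scipy 1.17.1 were used.

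The members and lists were chosen with earlier results of these data known. All members with an IDR summit are named, with the 10 strongest in full, the 2 nearest on each side of 1000 bp, the 5 strongest pooled-only members and up to 3 genes of each other list. mRpS29, mRpL10 and mRpL12 were named after their values were seen. The neighbour of mRpL37 is not reported here. Of the written list symbols, 8 had no single match and were left out. The longer stretches of sequence, the motif counts at start sites by IDR status, and the split by divergent start site and by its gap were chosen after the data were seen. Counts by chromosome arm and by symbol number, and a narrower symbol pattern for the cytoplasmic ribosomal proteins, were also looked at then and are not reported.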

Additional observations from a re-analysis of the deposited data

How the results depend on the processing

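The count of 20 members with an IDR summit was 17 with a window of 250 bp (23.3%, against 12.5% of all genes) and 26 with 2000 bp (35.6%, against 24.2%). It fell to 12 in the 2277 IDR peaks of highest signal, where 16.4% of members and 11.4% of all genes had one. Requiring a match in both other replicates gave 16 to 17 members over the 3 choices of the replicate left out (21.9 to 23.3%, against 15.5 to 16.5% of all genes), and 15 with a match in all 3 replicates (20.5%, against 14.7%). With only genes that have a divergent start site, an alternative chosen after seeing the data, the shares were 34.5% of members and 33.5% of all genes, where 27.4% and 19.3% were found without that limit. Members matched in all 3 replicates fell to 6 of 20 when 90% of the peak had to be covered, as did all IDR peaks to 22.8%. The mean over replicates, 20.7 members, was 41 in the whole relaxed lists and 13.3 with 2277 peaks per replicate, and 20 to 21 with each replicate left out. The median signal was 230.6 with 1 value per peak. The median distance was 153.5 bp for the strongest summits and 139 bp in the pooled list. The neighbour's start site was nearer at 12 members under each of 3 alternatives. None of these was a switch from the strongest to the nearest summit, which at mRpS22 was closest to its own start site. Motif counts at 21 summits are small and moved with the window, the DRE to 2 at 250 bp. Depth is unknown, and no test between conditions was possible.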
